A study of Drosophila melanogaster with 18 samples.

Results

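The larval fat body of Dutch flies held 182 genes whose RNA was higher than in Zambian flies at each of 3 stages around the end of larval life. The 182 genes were chosen by their measured values, from 12460 genes with a mean of at least 15 counts over the 18 libraries, out of 16438 genes in the count table. A gene was a member if, at every stage, its lowest Dutch library lay above its highest Zambian library and its Dutch mean was at least 1.5 times its Zambian mean, both in CPM, counts scaled to a library total of 1000000. Members made up 1.46% of the tested genes. The same rule with the populations exchanged found 92 genes. Because the difference between the populations selected these genes, that difference is described here and not tested.

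Both populations were wild-type Drosophila melanogaster kept as isofemale strains, each founded by a single wild-caught female, and the labels name no transgene or treatment. NL denotes the Netherlands and ZI denotes Zambia. Fat bodies were dissected from female wandering larvae of the last instar, early or late in wandering as judged by the colour of the gut after feeding on blue-dyed food, or from female white prepupae, and each population and stage had 3 libraries of RNA depleted of ribosomal RNA. Each library pooled material from 12 Dutch or 10 Zambian strains, so the 3 libraries of a group share their strains and a p-value measures only the spread between pools. In such bulk samples, fewer cells of a type and less RNA per cell cannot be told apart. Library totals ran from 14998610 to 37250385 counts, and 3 libraries per group limit the precision of every mean.

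The fat body of the fly larva is a storage, secretory and detoxifying organ that joins the roles of vertebrate liver and adipose tissue. It builds triglyceride and glycogen from the diet while the larva feeds, secretes storage proteins and immune peptides into the hemolymph, and breaks down foreign chemicals with cytochrome P450 enzymes, esterases and conjugating transferases. At the end of larval life feeding stops and the organ is remodelled under the steroid hormone ecdysone.

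The 7 fat body markers, storage proteins and lipoproteins among them, summed to 431650 to 443679 CPM in NL and 448140 to 459731 CPM in ZI early, 333692 to 378346 and 368246 to 386764 CPM late and 328227 to 338823 and 364180 to 370064 CPM in prepupae. The fat body sums thus lay higher in all ZI than in all NL libraries early and in prepupae and overlapped late, and the Y-linked markers summed to at most 0.336 CPM. Of the markers of other cell types, the summed muscle and hemocyte lists lay higher in all NL than in all ZI libraries late and in prepupae, and the oenocyte list early and late. The neuron and glia list and the gut list without LManV lay higher in all ZI than in all NL libraries at every stage. The lists of the female gonad, testis and trachea lay higher in all ZI libraries early, those of the testis and Malpighian tubule in all NL libraries late, and that of the salivary gland in all NL prepupal libraries. Their part in the differences below was not tested.

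The ratio of the NL to the ZI mean ran from 1.504 to 23.4 among the members early, with a median of 2.27, from 1.54 to 35.0 late, with a median of 2.90, and from 1.51 to 19.6 in prepupae, with a median of 2.15. Over all tested genes the median ratio was 0.918 early, 1.24 late and 1.03 in prepupae, so late ratios include a shift over all genes. After TMM scaling the median log2 difference of all tested genes was 0.03, 0.04 and 0.00 at the 3 stages, and that of the members was 1.34, 1.27 and 1.07. With upper-quartile scaling the late median was 0.25 for all tested genes and 1.47 for the members. Whether the late shift comes from the scaling was not tested. In CPM, before either of these scalings and with the late shift included, the ratio was highest late for 104 members, early for 51 and in prepupae for 27. It was at least 2 at every stage for 77 members, at least 3 for 28 and at least 5 for 8. Together the members took 22176 to 24576 CPM of the NL libraries early, 23302 to 23656 CPM late and 18510 to 18919 CPM in prepupae. In ZI they took 7913 to 9381, 7011 to 7974 and 7005 to 7296 CPM.

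The share of all tested genes whose lowest NL library lay above the highest ZI library was 9.03% early, 28.3% late and 15.6% in prepupae. With edgeR's quasi-likelihood test, 167 members were called higher in NL early, 163 late and 139 in prepupae at an adjusted p below 0.05, against 4.53%, 13.7% and 2.66% of all tested genes. The test called 3.00% of all tested genes higher in ZI early, 14.1% late and 2.09% in prepupae, and 0 members, which the rule itself fixes. All 3 stages were called for 126 members, 2 stages for 36, 1 stage for 19, and no stage for CG6983. Nothing is read from these member counts, since the same contrast chose the genes. Background denotes the shares of all tested genes called higher in NL early, late and in prepupae, and ZI background those called higher in ZI. The share called at some or any stage was not worked out, so nothing is read from such counts of gene lists. Just inside the limit of 1.5 lay Ugt301D1, with a smallest ratio of 1.504, CG16898 with 1.507 and Rpp21 with 1.509. Just outside lay CG44194 with 1.489, Got2 with 1.485 and Zip88E with 1.481. Another 66 genes had the fold at every stage but overlapping libraries.

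CG4577 had the highest ratio, 20.9 as the geometric mean of the 3 stages. Its NL libraries held 32.8, 26.8 and 23.5 CPM early, 85.3, 62.2 and 36.9 CPM late and 42.7, 46.5 and 41.7 CPM in prepupae. Those of ZI held 2.17, 2.64 and 1.46 CPM early, 3.07, 0.749 and 1.44 CPM late and 2.09, 1.79 and 2.81 CPM in prepupae. The lowest NL library thus stood well above the highest ZI library at each stage, and the ratios were 13.3, 35.0 and 19.6. Here and below, 3 ratios in a row are those of the early, late and prepupal stages. No role is given here for CG4577.

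Pos was next, with ratios of 15.8, 19.0 and 8.38. It lay at 7.59, 2.70 and 4.04 CPM early, 11.6, 6.84 and 9.55 CPM late and 5.21, 7.07 and 5.51 CPM in prepupae in NL. In ZI it lay at 0.43, 0.24 and 0.237 CPM early, 0.475, 0.358 and 0.638 CPM late and 0.584, 1.01 and 0.53 CPM in prepupae, so the ratio rests on few ZI reads.

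LManVI and LManV encode lysosomal alpha-mannosidases, enzymes that trim mannose from glycoproteins, and they lie side by side on chromosome arm 2L with 1397 bases between them, on the same strand. LManVI stood at 15.7, 27.9 and 12.0 CPM early, 90.2, 72.0 and 74.5 CPM late and 63.0, 45.7 and 54.1 CPM in prepupae in NL. The ZI libraries held 2.77, 4.14 and 2.88 CPM early, 7.76, 6.61 and 3.97 CPM late and 4.06, 4.43 and 6.02 CPM in prepupae. Log2 changes between stages come from the TMM-scaled fit, and can differ from the change in CPM. LManVI rose from early to late in NL (log2 change 1.53 ± 0.28 SE, adjusted p = 1.6e-04), while the change in ZI was 0.77 with an adjusted p of 0.058. LManV had means of 4.50 ± 0.458, 6.35 ± 3.04 and 2.53 ± 0.774 CPM in NL (SD, n = 3) against 1.04 ± 0.322, 0.700 ± 0.301 and 0.992 ± 0.342 CPM in ZI. The next mannosidase genes of the same stretch are LManIV and LManIII, which are no members. LManIV had ratios of 1.09, 3.24 and 0.592 and LManIII had 1.09, 2.33 and 0.952, and both were called higher in NL late. Farther along 2L, LManII had ratios of 1.27, 1.02 and 1.27, and LManI had 0.972, 0.758 and 1.28. The third glycan enzyme, FucTA, adds the core alpha-1,3-fucose that makes the HRP epitope of insect glycoproteins. FucTA held 6.53, 5.43 and 6.29 CPM early, 9.29, 8.90 and 10.5 CPM late and 12.7, 9.0 and 9.84 CPM in prepupae in NL. In ZI it held 0.591, 1.56 and 0.914 CPM early, 1.27, 0.977 and 0.944 CPM late and 1.08, 0.953 and 1.12 CPM in prepupae, with no stage change called in either population. Among the 16 other tested genes of the mannosidase and N-glycan list, 0 were called higher in NL early, 3 late and 0 in prepupae. The background was 4.53%, 13.7% and 2.66%. At some stage 3 of the 16 were called higher in ZI.

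CheB42b and CheB42a belong to a family of small secreted proteins known from gustatory bristles. CheB42b stood at 2.82, 2.20 and 1.93 CPM early, 2.14, 9.12 and 7.89 CPM late and 6.03, 5.53 and 4.74 CPM in prepupae in NL. It stood at 0.51, 0.36 and 0.373 CPM early, 0.127, 0.586 and 0.416 CPM late and 0.553, 1.46 and 0.53 CPM in prepupae in ZI, and NL replicate 1 of the late stage was far below its 2 companions. CheB42a had ratios of 4.66, 5.66 and 3.12. CheB42c, which lies between them in the same cluster on arm 2R and is no member, had ratios of 1.43, 2.80 and 2.41, short of the limit early.

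Cluap1, an intraflagellar transport protein of cilia, held 12.8, 3.80 and 5.91 CPM early, 12.9, 9.01 and 9.46 CPM late and 7.32, 9.20 and 7.05 CPM in prepupae in NL. It held 0.913, 0.78 and 0.61 CPM early, 0.919, 0.521 and 1.05 CPM late and 1.17, 1.57 and 2.12 CPM in prepupae in ZI. Its ratios were 9.76, 12.6 and 4.85, and the NL libraries of the early stage spread over more than the ZI libraries did. CG3339, a dynein heavy chain gene by its synonym in RefSeq, belongs to the motor proteins that drive cilia and cargo. It had ratios of 3.55, 11 and 6.40, and its rise from early to late in NL (log2 change 0.78 ± 0.26 SE, adjusted p = 0.022) was no longer called without NL late replicate 2 or 3. Of the 9 other tested dynein heavy chains, 7 were called higher in NL late and 0 at the other stages, and 0 higher in ZI. The background was 4.53% early, 13.7% late and 2.66% in prepupae, and the ZI background 3.00%, 14.1% and 2.09%.

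**Figure D1:**
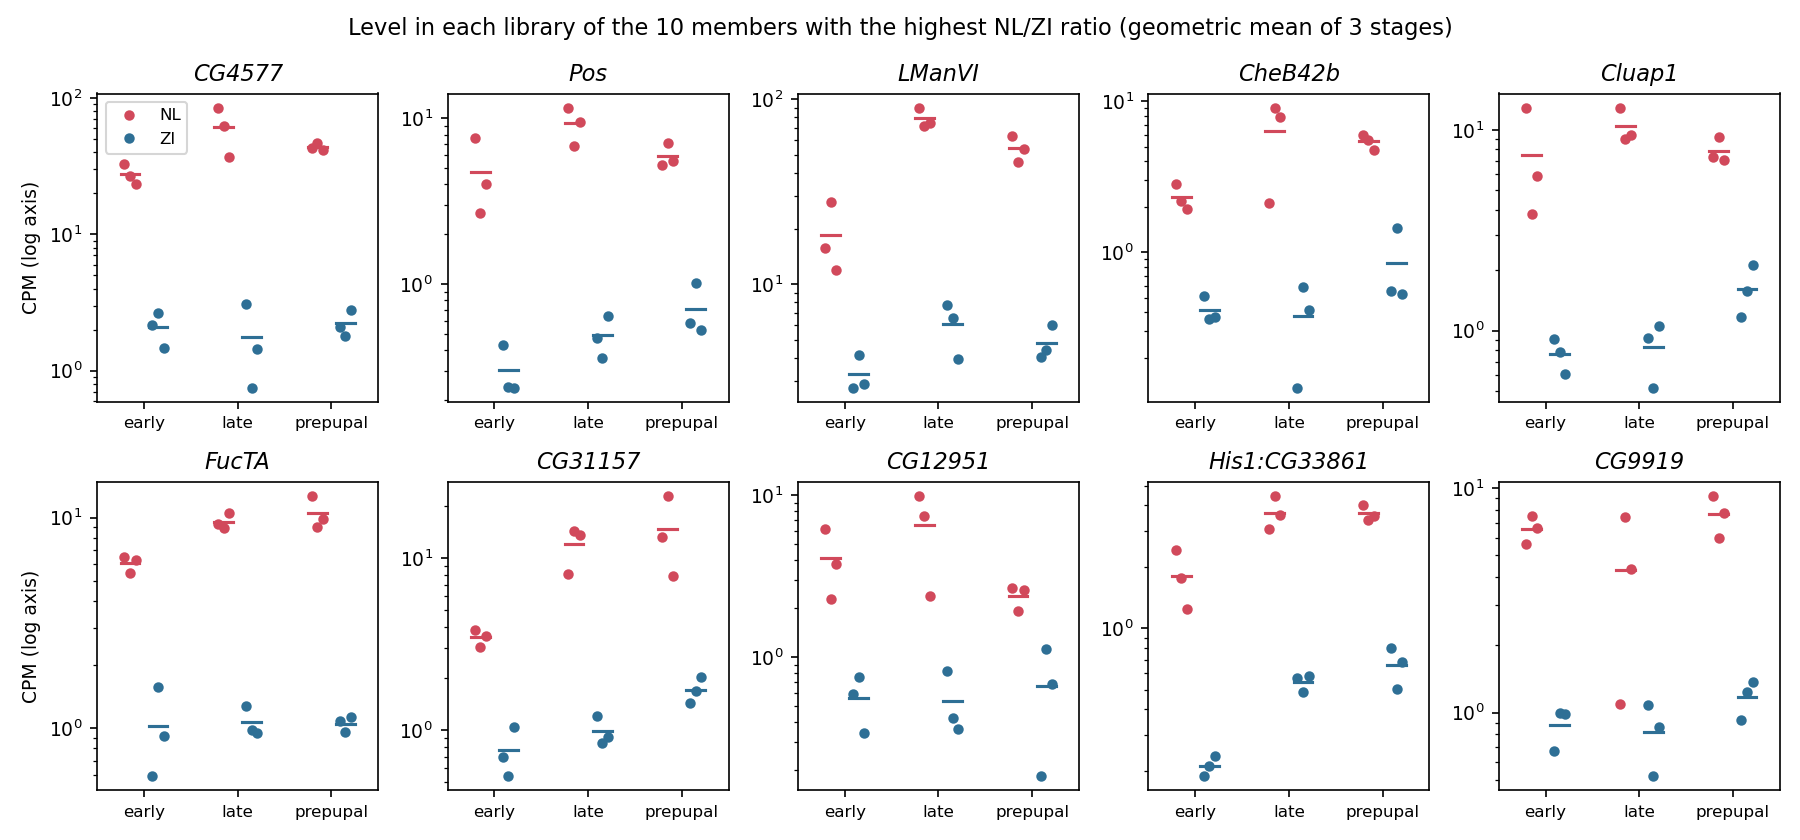
CPM in each library, on a log axis, of the 10 members with the highest geometric mean ratio at the early, late and prepupal stages, with NL in red, ZI in blue and a bar at the mean of 3 libraries. At every stage each NL point lies above each ZI point, as the rule requires, and the distance is widest for CG4577.

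The remaining members among the 10 with the highest ratios were CG31157, CG12951, His1:CG33861 and CG9919, with geometric mean ratios of 7.78, 6.87, 6.83 and 6.34. CG31157 stood at 3.81, 3.03 and 3.53 CPM early, 8.07, 14.4 and 13.6 CPM late and 13.3, 22.9 and 7.90 CPM in prepupae in NL. In ZI it stood at 0.698, 0.54 and 1.05 CPM early, 1.2, 0.847 and 0.916 CPM late and 1.44, 1.68 and 2.03 CPM in prepupae. At each stage the lowest NL library of CG31157 stood well above the highest ZI library. CG12951 stood at 6.20, 2.30 and 3.74 CPM early, 9.89, 7.49 and 2.40 CPM late and 2.67, 1.93 and 2.61 CPM in prepupae in NL. In ZI it stood at 0.591, 0.75 and 0.339 CPM early, 0.824, 0.423 and 0.361 CPM late and 0.184, 1.12 and 0.686 CPM in prepupae. CG9919 lies on X, where its end overlaps the member CalpC by 87 bases on the opposite strand. CG9919 held 5.6, 7.53 and 6.65 CPM early, 1.09, 7.42 and 4.36 CPM late and 9.20, 6.0 and 7.71 CPM in prepupae in NL. In ZI it held 0.671, 0.99 and 0.982 CPM early, 1.08, 0.521 and 0.86 CPM late and 0.922, 1.23 and 1.37 CPM in prepupae, so NL replicate 1 of the late stage lay barely above the highest ZI library. His1:CG33861 is 1 copy of the linker histone H1 gene, which the fly carries in a tandem array of near-identical units. Read pairs that fit several genes were discarded by the authors, so reads of His1:CG33861 and His2B:CG33868 may be lost. The values of both are uncertain. The NL means of His1:CG33861 were 1.81 ± 0.588, 3.69 ± 0.707 and 3.66 ± 0.323 CPM (SD, n = 3), and the ZI means 0.212 ± 0.0246, 0.547 ± 0.0513 and 0.663 ± 0.149 CPM. Of the 41 other tested histone genes, 2 were called higher in NL at any stage and 11 higher in ZI. The same caution on near-identical copies holds for Ste:CG33237, of the X-linked Stellate repeats, with ratios of 3.96, 6.82 and 4.99.

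Per transcript length, in TPM, which scales counts by gene length and library, the members with the highest mean level over the 18 libraries were Cyp6g1 at 3529 TPM, Drsl5 at 870.1, Arc1 at 647, CG10962 at 602 and lncRNA:CR40469 at 462 TPM. CG10962 held 892, 881 and 826 CPM early, 787, 586 and 619 CPM late and 479.6, 520.0 and 462 CPM in prepupae in NL. In ZI it held 186, 233 and 263 CPM early, 191, 256 and 158 CPM late and 422, 159.9 and 167 CPM in prepupae, with ratios of 3.81, 3.29 and 1.95. The noncoding lncRNA:CR40469 held 67.8, 69.2 and 63.1 CPM early, 96.6, 114.8 and 127 CPM late and 157, 152 and 102 CPM in prepupae in NL. In ZI it held 14.5, 21.2 and 15.7 CPM early, 33.5, 48.0 and 37.6 CPM late and 44.0, 45.1 and 34.6 CPM in prepupae, with ratios of 3.90, 2.84 and 3.32. Most members were far lower. The median mean level was 9.44 CPM, against 4.78 CPM for all tested genes, and 63 members lay under 5 CPM.

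Cyp6g1 is a cytochrome P450 known for conferring resistance to DDT and other insecticides. In NL it stood at 8754, 8039.7 and 6903 CPM early, 10647, 9526 and 10892 CPM late and 5693, 5676 and 6067 CPM in prepupae. In ZI the libraries held 1433, 1406 and 1159 CPM early, 3094, 2814 and 2652 CPM late and 2519.5, 2207 and 2458 CPM in prepupae. The ratio was 5.93 early, 3.63 late and 2.43 in prepupae. Within ZI, Cyp6g1 rose from early to late (log2 change 0.97 ± 0.16 SE, adjusted p = 6.7e-05), and in NL the change was -0.16 with an adjusted p of 0.41. From late to prepupae Cyp6g1 fell in NL (log2 change -0.83 ± 0.16 SE, adjusted p = 0.0011). Its neighbour Cyp6g2, a P450 that is no member, had ratios of 3.68, 2.93 and 1.37.

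Another 6 P450 genes were members. Cyp9b2 held 359, 322 and 316 CPM early, 329, 218 and 171 CPM late and 56.4, 59.9 and 49.9 CPM in prepupae in NL. It held 167, 189 and 184 CPM early, 62.0, 108 and 71.3 CPM late and 25.1, 23.9 and 26.9 CPM in prepupae in ZI, and fell at both intervals in both populations. Cyp28d1 stood at 238 ± 31.5 CPM in NL and 149 ± 39.5 CPM in ZI early (SD, n = 3), and fell from late to prepupae in NL (log2 change -1.84 ± 0.26 SE, adjusted p = 4.3e-05) and in ZI (-1.66 ± 0.26 SE, adjusted p = 1.7e-04). Cyp4e3 moved most between stages: the NL libraries held 37.5, 39.7 and 41.5 CPM early, 408, 262 and 264 CPM late and 7.75, 6.80 and 3.64 CPM in prepupae. The ZI libraries held 14.4, 15.4 and 31.1 CPM early, 7.45, 39.7 and 22.8 CPM late and 2.0, 2.41 and 1.68 CPM in prepupae. Cyp4e3 rose from early to late in NL (log2 change 2.47 ± 0.47 SE, adjusted p = 2.7e-04) and fell to prepupae in NL (-5.70 ± 0.55 SE, adjusted p = 9.1e-07) and in ZI (-3.82 ± 0.54 SE, adjusted p = 7.6e-05). In ZI the change from early to late was 0.11, with an adjusted p of 0.88. Cyp12a4, a mitochondrial P450 known from lufenuron resistance, had ratios of 4.21, 5.56 and 2.10. Cyp4ad1 had 2.18, 2.40 and 2.28, and Cyp4s3 had 1.69, 2.90 and 1.86, and both fell at both intervals in both populations. Of the 76 other P450 genes tested, 11 were called higher in NL early, 15 late and 7 in prepupae (background 4.53%, 13.7% and 2.66%). At some stage 22 were called higher in NL and 10 in ZI.

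The alpha-esterase cluster on arm 3R holds carboxylesterases, enzymes that cleave ester bonds in foreign compounds and lipids. Of its 10 genes, all tested, alpha-Est1, alpha-Est2 and alpha-Est4 were members. In NL, alpha-Est2 stood at 238, 301 and 261 CPM early, 151, 90.2 and 71.6 CPM late and 16.1, 18.5 and 16.6 CPM in prepupae. In ZI it stood at 189.6, 147 and 164 CPM early, 22.4, 43.9 and 24.2 CPM late and 10.5, 5.61 and 8.70 CPM in prepupae, and it fell at both intervals in both populations, as did asRNA:CR46129, which overlaps it on the opposite strand. Whether the authors counted by strand is not given in the sources used here, so reads of such a pair cannot be told apart. The ratios of alpha-Est4 were 3.63, 2.64 and 1.53 and those of alpha-Est1 were 1.65, 1.94 and 1.61. Other genes of the cluster were mixed: alpha-Est5 had ratios of 2.26, 1.80 and 1.32, alpha-Est3 of 0.957, 1.05 and 1.04 and alpha-Est8 of 0.467, 1.31 and 0.962. A further carboxylesterase, Est-Q, had 2.32, 3.66 and 1.51.

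Conjugation follows oxidation in detoxification, and 8 transferases of that step were members, with the ABC transporter Mrp4 as an exporter. The GstD cluster on arm 3R encodes cytosolic glutathione S-transferases, which join glutathione to reactive compounds. GstD10 held 240.1, 228 and 212 CPM early, 185, 170.2 and 162 CPM late and 128, 127 and 127 CPM in prepupae in NL. It held 94.1, 100.4 and 97.9 CPM early, 19.7, 29.7 and 22.7 CPM late and 11.1, 13.7 and 11.1 CPM in prepupae in ZI, and its ratio was 2.33 early, 7.18 late and 10.7 in prepupae. GstD10 fell from early to late in NL (log2 change -0.94 ± 0.19 SE, adjusted p = 4.2e-04) and in ZI (-2.13 ± 0.19 SE, adjusted p = 3.3e-08), and from late to prepupae in ZI (-1.25 ± 0.19 SE, adjusted p = 1.7e-04), while the later change in NL was -0.43 with an adjusted p of 0.13. Whether the fall differed between the populations was not tested, because that difference is built from the contrast that chose the genes.

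GstD9, 427 bases from GstD10 on the same strand, had ratios of 2.25, 2.42 and 2.45. GstD6 had 3.40, 5.15 and 1.65 and GstD7 had 2.46, 5.36 and 2.89. All 4 members of the cluster fell from early to late in both populations, where 23.2% of all tested genes fell in NL and 17.0% in ZI, GstD6 in NL by the most (log2 change -3.02 ± 0.23 SE, adjusted p = 6.2e-09) and GstD7 in ZI (log2 change -3.45 ± 0.31 SE, adjusted p = 2.9e-08). GstD1, no member, stood at 653 ± 22.6 CPM in NL and 448 ± 5.67 CPM in ZI early (SD, n = 3), a ratio of 1.46 just short of the limit, and had ratios of 2.28 late and 3.39 in prepupae. GstD5 turned over between the stages, with 4.21, 0.435 and 0.25. The genes of this cluster are close paralogs, and read pairs that fit several of them would have been lost in the authors' counting.

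Mgstl, a microsomal glutathione S-transferase on the X chromosome, stood at 144, 168 and 182 CPM early, 85.4, 63.3 and 57.2 CPM late and 25.2, 26.7 and 27.5 CPM in prepupae in NL. In ZI it stood at 94.9, 67.0 and 65.8 CPM early, 13.5, 16.2 and 15.5 CPM late and 11.2, 11.4 and 13.0 CPM in prepupae. Mgstl fell from early to late in NL (log2 change -1.78 ± 0.20 SE, adjusted p = 8.6e-07) and in ZI (-2.45 ± 0.21 SE, adjusted p = 1.4e-08). The antisense gene asRNA:CR44431 lies within Mgstl over all of its 475 bases, on the opposite strand, and had ratios of 2.26, 4.83 and 2.65, close to the 2.17, 4.56 and 2.23 of Mgstl, and the reads of the pair cannot be told apart. Of the 30 other tested glutathione S-transferases, 3 were called higher in NL early, 4 late and 4 in prepupae (background 4.53%, 13.7% and 2.66%). At some stage 8 were called higher in NL and 10 in ZI.

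Ugt37A2 and Ugt37A3 encode UDP-glycosyltransferases, which attach sugars to small lipophilic compounds, and lie 540 bases apart on opposite strands of arm 3R. Ugt37A3 held 203, 180.5 and 145 CPM early, 144, 81.0 and 57.9 CPM late and 25.2, 23.8 and 20.3 CPM in prepupae in NL. It held 32.0, 33.2 and 32.7 CPM early, 12.4, 19.1 and 7.91 CPM late and 6.06, 4.26 and 5.58 CPM in prepupae in ZI, and fell at both intervals in both populations. Ugt37A2 stood at 13.1 ± 2.73 CPM in NL and 2.01 ± 0.222 CPM in ZI early (SD, n = 3), with ratios of 6.51, 11.5 and 3.10. Of the 31 other tested UDP-glycosyltransferases, 6 were called higher in NL early, 10 late and 0 in prepupae (background 4.53%, 13.7% and 2.66%). At some stage 14 were called higher in NL and 6 in ZI. All 9 members of conjugation and export, a group put together after the values were seen, fell from early to late in both populations, against 23.2% of all tested genes in NL and 17.0% in ZI. Of the 9 genes, 5 fell from late to prepupae in each population, against 7.45% and 8.69% of all tested genes. Some of these calls rested on single libraries: the fall of Ugt37A2 from early to late was lost in 8 of 22 alternatives in NL and in 4 in ZI, that of Mrp4 in ZI without ZI early replicate 3, and the late fall of Ugt37A3 in ZI without ZI late replicate 2.

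**Figure D2:**
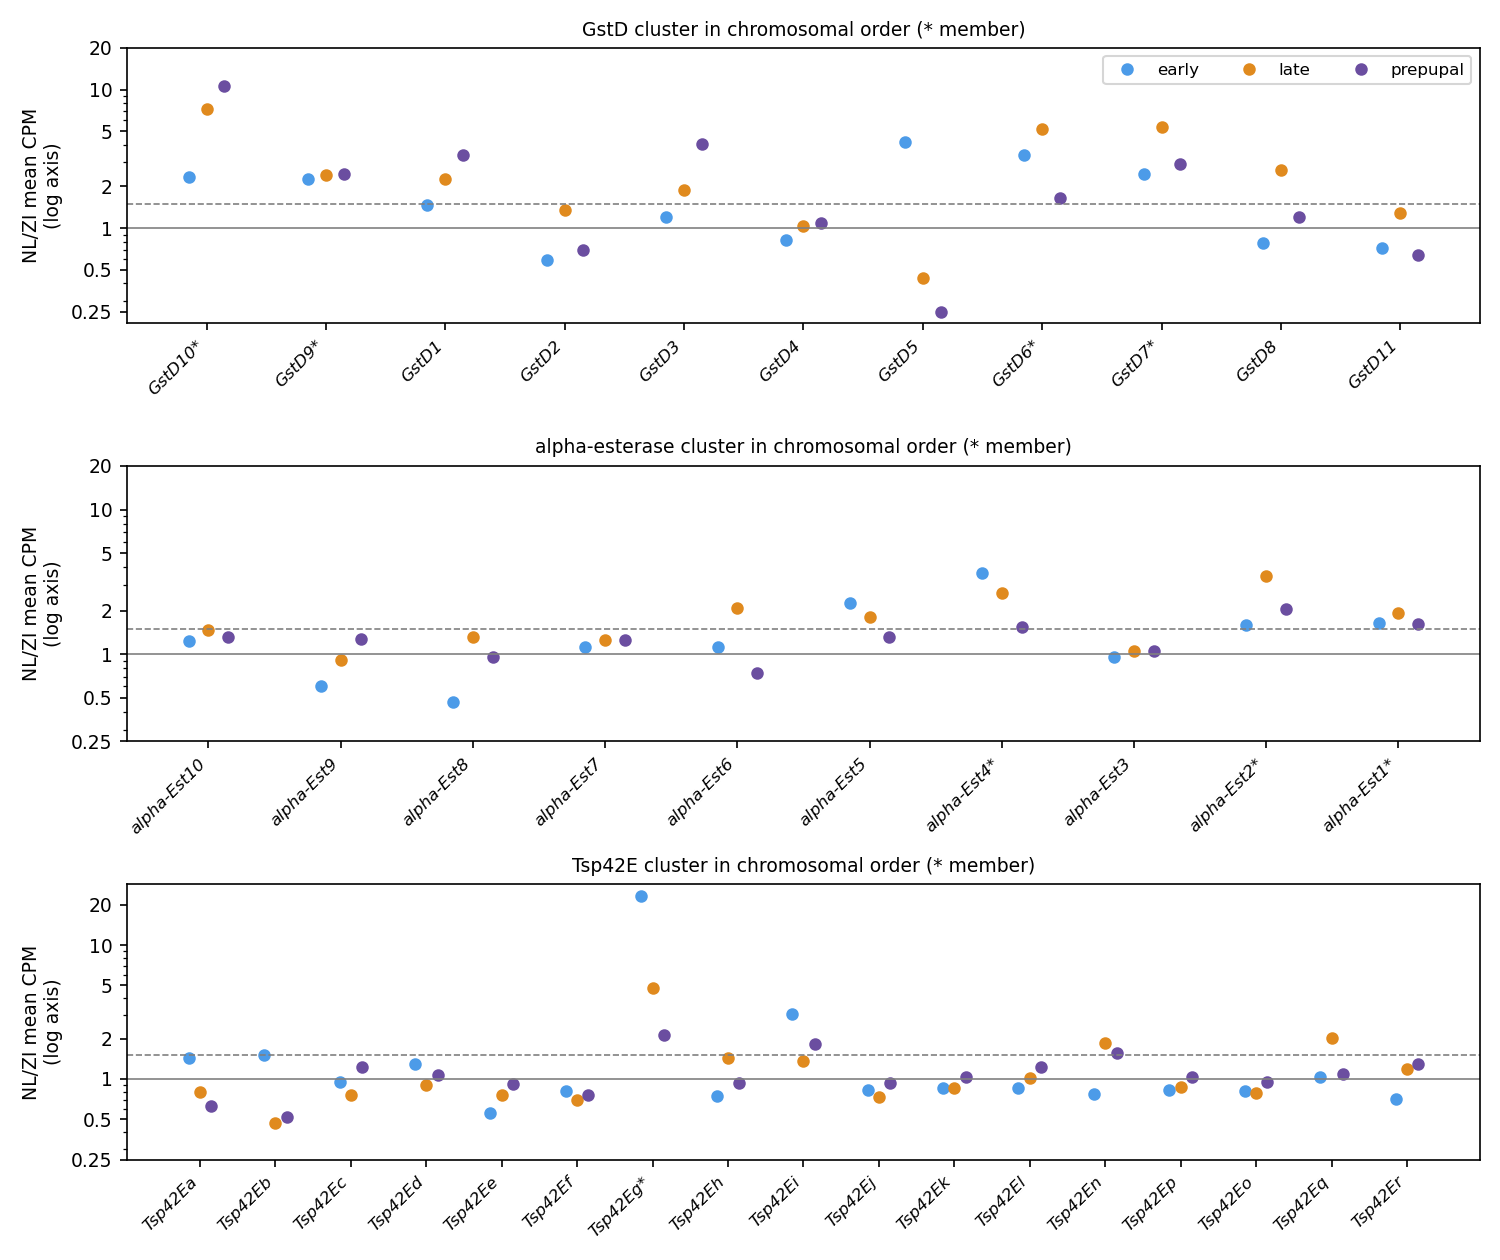
Ratio of the NL to the ZI mean, on a log axis, for the genes of 3 clusters in chromosomal order, with 1 point per stage, a solid line at 1, a dashed line at the limit of 1.5 and members starred. Members share their clusters with genes whose ratios are near or below 1, such as GstD4 and alpha-Est3. Tsp42Eg, with an early ratio of 23.4, is the single member of its cluster.

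Of the 32 tested genes of the fatty acid synthesis and elongation list, 5 were members, and Agpat2 stood outside the list. ATPCL makes cytosolic acetyl-CoA, ACC makes malonyl-CoA, FASN1 and FASN2 build fatty acids, Baldspot elongates them and Agpat2 adds an acyl chain on the way to triglyceride and phospholipid. ATPCL stood at 763, 596 and 629.8 CPM early, 218, 193 and 181 CPM late and 99.9, 135 and 122 CPM in prepupae in NL. It stood at 368, 357 and 318 CPM early, 97.4, 99.95 and 91.3 CPM late and 57.7, 54.6 and 60.2 CPM in prepupae in ZI, with ratios of 1.91, 2.05 and 2.07. FASN1 held 3024, 2689.8 and 2922 CPM early, 599.9, 531 and 449 CPM late and 358, 422 and 390.2 CPM in prepupae in NL. It held 1919, 1439.8 and 1263 CPM early, 260.2, 353 and 255 CPM late and 289, 191 and 193 CPM in prepupae in ZI, with ratios of 1.87, 1.82 and 1.74. The ratios of ACC were 1.84, 1.94 and 2.02, those of Agpat2 1.89, 2.14 and 1.93 and those of Baldspot 1.72, 2.40 and 2.67. Over the 13 members of fat and inositol metabolism the median ratio was 1.84 early, 2.14 late and 1.99 in prepupae.

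The same genes fell steeply when wandering went on. FASN1 fell from early to late in NL (log2 change -2.98 ± 0.25 SE, adjusted p = 2.0e-08) and in ZI (-2.52 ± 0.24 SE, adjusted p = 8.0e-08). ATPCL fell in NL (log2 change -2.29 ± 0.18 SE, adjusted p = 7.2e-09) and in ZI (-1.98 ± 0.17 SE, adjusted p = 2.3e-08), and ACC in NL (-2.24 ± 0.17 SE, adjusted p = 6.1e-09) and in ZI (-1.88 ± 0.17 SE, adjusted p = 2.6e-08). Of the 13 genes of the group, put together after the values were seen, 11 fell from early to late in NL and 10 in ZI, against 23.2% and 17.0% of all tested genes. From late to prepupae 6 fell in NL and 8 in ZI, against 7.45% and 8.69%. FASN2 behaved otherwise, with a log2 change of -0.16 in NL and -0.27 in ZI, neither called. FASN2 is known for synthesis in oenocytes, and the summed oenocyte markers were 62.8 to 69.3 CPM in NL and 45.4 to 62.0 CPM in ZI early, 41.5 to 56.0 and 29.1 to 40.7 CPM late and 55.3 to 66.9 and 59.7 to 83.4 CPM in prepupae. The ratios of FASN2 were 2.54, 3.70 and 2.70, and the part of oenocyte RNA in them was not tested. FASN2 and FASN1 are neighbours on 2L, 454 bases apart on the same strand, next to another member, CG17221. Of the 27 other tested genes of the fatty acid synthesis and elongation list, 5 were called higher in NL early, 2 late and 2 in prepupae. The background was 4.53%, 13.7% and 2.66%. At some stage 8 of the 27 were called higher in NL and 1 in ZI.

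Mpc1, a subunit of the carrier that brings pyruvate into mitochondria, had ratios of 1.76, 2.0 and 2.07. Ldsdh1, a short-chain dehydrogenase of lipid droplets, had 1.61, 2.17 and 1.81, and nes, a lysophospholipid acyltransferase, had 1.67, 1.78 and 2.07. On the side of breakdown, the acyl-CoA oxidase Acox57D-d had ratios of 1.80, 2.41 and 1.53, and Abcd3, an ABC transporter of the peroxisome, had 1.78, 2.62 and 1.99. These 2 genes of breakdown fell at both intervals in both populations.

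Inos encodes the enzyme that makes inositol phosphate from glucose-6-phosphate, the first step of inositol synthesis. In NL it stood at 147, 153 and 162 CPM early, 85.3, 32.9 and 41.1 CPM late and 10.5, 12.1 and 12.0 CPM in prepupae. In ZI it stood at 15.7, 20.5 and 14.2 CPM early, 19.9, 17.7 and 8.10 CPM late and 7.01, 4.71 and 7.57 CPM in prepupae. The ratio went from 9.17 early to 3.49 late and 1.80 in prepupae. Inos fell from early to late in NL (log2 change -2.02 ± 0.33 SE, adjusted p = 6.5e-05) and then to prepupae (-2.27 ± 0.35 SE, adjusted p = 1.0e-04), while the first change in ZI was -0.28 with an adjusted p of 0.56. Faa, fumarylacetoacetase, performs the last step of tyrosine breakdown. Its NL libraries held 28.2, 23.1 and 46.0 CPM early, 19.5, 11 and 7.46 CPM late and 5.34, 4.80 and 3.93 CPM in prepupae. Its ZI libraries held 3.03, 2.01 and 2.51 CPM early, 1.93, 1.63 and 1.92 CPM late and 1.35, 1.68 and 2.52 CPM in prepupae, so its ratio went from 12.9 to 2.53. Faa fell at both intervals in NL (log2 change -1.82 ± 0.30 SE, adjusted p = 7.1e-05 and -1.49 ± 0.33 SE, adjusted p = 0.0028). Of the 6 other tested genes of phenylalanine and tyrosine breakdown, 2 were called higher in NL late and 0 at the other stages, and 0 higher in ZI. The background was 4.53%, 13.7% and 2.66%.

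**Figure D3:**
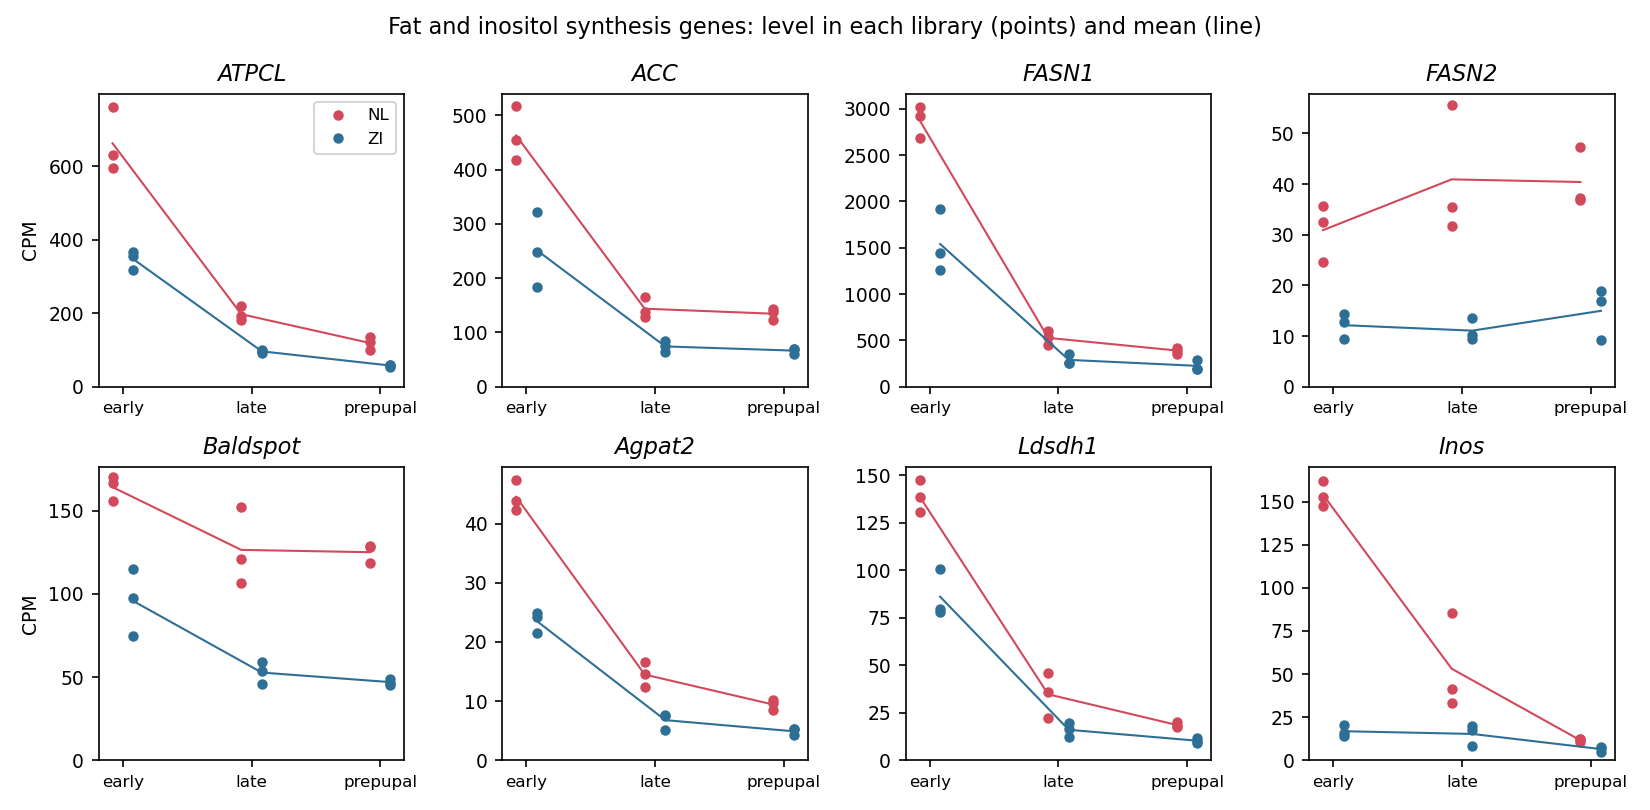
CPM of 8 genes of fat and inositol synthesis in each library, as points, with lines through the means of 3 libraries, NL in red and ZI in blue. NL lies above ZI at each stage, and ATPCL, ACC, FASN1 and Agpat2 drop in both populations from early to late, whereas FASN2 does not.

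Among genes of adhesion, receptors and the cytoskeleton, the tetraspanin Tsp42Eg, of a family of membrane-spanning organizers of protein complexes, had the highest early ratio of any member. Its NL libraries held 21.4, 18.5 and 21.0 CPM early, 2.24, 3.87 and 3.27 CPM late and 1.55, 1.47 and 1.76 CPM in prepupae. Its ZI libraries held 1.05, 0.75 and 0.813 CPM early, 0.697, 0.586 and 0.694 CPM late and 0.646, 0.897 and 0.686 CPM in prepupae. Tsp42Eg fell in NL from early to late (log2 change -3.28 ± 0.15 SE, adjusted p = 1.1e-11) and again to prepupae (-0.94 ± 0.17 SE, adjusted p = 4.6e-04), and the changes in ZI were -0.53 and -0.08, with adjusted p of 0.059 and 0.83. The adjoining Tsp42Ef had ratios of 0.819, 0.700 and 0.759 and Tsp42Eh had 0.742, 1.43 and 0.939. Of the 30 other tested tetraspanins, 3 were called higher in NL early, 1 late and 1 in prepupae (background 4.53%, 13.7% and 2.66%). At some stage 4 were called higher in NL and 8 in ZI.

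Lgr4, a leucine-rich repeat G-protein-coupled receptor, held 7.26, 7.59 and 8.46 CPM early, 3.89, 4.85 and 5.63 CPM late and 4.35, 3.40 and 4.81 CPM in prepupae in NL. It held 0.805, 1.02 and 0.576 CPM early, 1.17, 0.456 and 0.611 CPM late and 0.707, 1.68 and 1.84 CPM in prepupae in ZI. CadN, a neural cadherin, had ratios of 4.60, 3.47 and 2.35, and both Lgr4 (log2 change -1.27 ± 0.23 SE, adjusted p = 1.7e-04) and CadN (-0.83 ± 0.15 SE, adjusted p = 2.2e-04) fell from early to late in NL. The small genes CG32640 and CG32641 lie within the span of Lgr4 on the opposite strand and had far flatter ratios of 1.71, 1.66 and 1.63 and of 1.69, 1.54 and 1.59. Of the 15 other tested cadherin and leucine-rich repeat genes, 0 were called higher in NL early, 5 late and 1 in prepupae. The background was 4.53%, 13.7% and 2.66%. At some stage 6 of the 15 were called higher in NL and 2 in ZI. The formin capu, which nucleates actin filaments, had 3.03, 4.65 and 2.80, and Strump, a subunit of the WASH complex that drives actin assembly on endosomes, had 2.54, 1.96 and 2.17. The actin-binding pair Unc-115a and Unc-115b had 1.68, 2.38 and 1.99 and 2.42, 3.67 and 3.01. Of the 19 other tested actin assembly factors, 1 was called higher in NL early, 1 late and 0 in prepupae, and 8 higher in ZI late. The background was 4.53%, 13.7% and 2.66%, and the ZI background late 14.1%.

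The large muscle proteins Msp300 and bt and the actin Act87E were also members, with ratios of 1.52, 1.55 and 1.57 for Msp300, 1.61, 1.86 and 1.75 for bt and 1.69, 3.13 and 1.97 for Act87E. The summed muscle markers, which hold none of the 3, were 182 to 210.2 CPM in NL and 186 to 209.2 CPM in ZI early, 172 to 245 against 65.8 to 79.9 CPM late and 79.2 to 173 against 53.5 to 64.8 CPM in prepupae. The marker sums of the populations overlapped early and did not later. An immunoglobulin-family adhesion receptor of muscle founder cells, kirre, had 3.88, 3.47 and 1.58. The part of muscle RNA in these ratios was not tested.

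Of genes known from nerve and sense organs, Arc1 was among the 5 highest members in TPM. It encodes a protein derived from a retrotransposon Gag that forms capsids and carries RNA between cells. Arc1 stood at 1025, 977 and 876 CPM early, 1004, 2313 and 1866 CPM late and 2254, 2661 and 2509 CPM in prepupae in NL. It stood at 221, 280.4 and 213 CPM early, 578, 463 and 395 CPM late and 395, 679.9 and 557 CPM in prepupae in ZI, with ratios of 4.03, 3.61 and 4.55. Arc1 rose from early to late in ZI (log2 change 0.87 ± 0.20 SE, adjusted p = 0.0015). Obp44a, an odorant-binding protein, had 4.68, 3.39 and 2.16, the gustatory receptor gene Gr28b 3.94, 3.20 and 1.92, the synaptotagmin Syt7 3.54, 4.13 and 3.06 and the potassium channel beta subunit Hk 1.77, 3.41 and 1.85. The summed neuron and glia markers were 225 to 228 CPM in NL and 268 to 295 CPM in ZI early. Late they were 365 to 417 and 471 to 573 CPM, and in prepupae 463 to 491 and 644 to 675 CPM. The part of nerve RNA in the ratios of these members was not tested. The calcineurin regulator sra held 9.58, 10.1 and 10.7 CPM early, 25.1, 45.6 and 36.0 CPM late and 78.0, 79.2 and 89.0 CPM in prepupae in NL. In ZI it held 4.75, 4.56 and 4.94 CPM early, 10.9, 7.26 and 11.3 CPM late and 14.8, 15.6 and 20.1 CPM in prepupae. The gene rose from early to late in NL (log2 change 1.23 ± 0.15 SE, adjusted p = 1.6e-06) and ZI (0.91 ± 0.15 SE, adjusted p = 7.5e-05) and from late to prepupae in NL (1.25 ± 0.14 SE, adjusted p = 4.7e-06). Its rise from late to prepupae in ZI (0.56 ± 0.15 SE, adjusted p = 0.014) was no longer called without ZI late replicate 2 or ZI prepupal replicate 3.

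Of the 35 tested genes of the Toll protease and antimicrobial peptide list, 3 were members, or 8.57% against 1.46% of all tested genes. Drsl5, a relative of the antifungal peptide Drosomycin, stood at 7.59, 10.5 and 17.2 CPM early, 113, 274 and 286 CPM late and 903, 798 and 681 CPM in prepupae in NL. In ZI it stood at 3.57, 2.34 and 2.03 CPM early, 109, 56.6 and 71.4 CPM late and 234, 244 and 179 CPM in prepupae. Drsl5 had the largest rise of any member, from early to late in NL (log2 change 3.66 ± 0.30 SE, adjusted p = 1.5e-08) and in ZI (4.73 ± 0.32 SE, adjusted p = 7.4e-10), and it rose again to prepupae in NL (1.90 ± 0.27 SE, adjusted p = 5.5e-05) and in ZI (1.29 ± 0.27 SE, adjusted p = 0.0027). The summed hemocyte markers were 171 to 212 CPM in NL and 188 to 233 CPM in ZI early, and 156 to 169.9 against 96.9 to 141 CPM late and 69.5 to 96.3 against 58.7 to 61.1 CPM in prepupae, and their part in these ratios was not tested. The antibacterial peptide gene AttC had ratios of 4.23, 2.14 and 2.54. Easter, the protease that activates the Toll ligand Spätzle in the embryo, is encoded by ea, which stood at 5.00 ± 0.885 CPM in NL and 0.815 ± 0.185 CPM in ZI early (SD, n = 3) and had ratios of 6.13, 3.63 and 2.93. Of the 32 other tested genes of that list, 5 were called higher in NL early, 0 late and 0 in prepupae. The background was 4.53%, 13.7% and 2.66%. At some stage 19 of the 32 were called higher in ZI. The caspase Dronc, which starts cell death, had ratios of 1.64, 1.59 and 1.99, and rose from late to prepupae in NL (log2 change 1.42 ± 0.16 SE, adjusted p = 4.8e-06) and in ZI (0.85 ± 0.16 SE, adjusted p = 0.0012).

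Genes of RNA, DNA and chromosomes made up a group of 13 members, put together after the values were seen. The ratio of heph, which encodes the polypyrimidine tract-binding protein that regulates splicing, hardly moved. Its NL libraries held 43.5, 40.2 and 63.7 CPM early, 62.4, 87.7 and 88.5 CPM late and 86.0, 97.1 and 75.4 CPM in prepupae. Its ZI libraries held 9.56, 9.54 and 9.04 CPM early, 14.9, 11.1 and 12.4 CPM late and 12.7, 15.1 and 14.5 CPM in prepupae, with ratios of 5.24, 6.23 and 6.10 and no stage change called in either population. Msh6, of DNA mismatch repair, had 2.36, 3.40 and 2.08, and its gene overlaps FucTA by 163 bases on the opposite strand. The photolyase phr had 3.81, 3.25 and 2.92, the TBP-related factor Trf2 2.33, 2.23 and 2.14, the RNA polymerase III factor Brf 1.84, 2.5 and 1.80, and the kinetochore proteins Mis12 2.34, 3.22 and 2.95 and Kmn1 1.72, 3.17 and 2.18. Outside this group, the genes Pif1A and Pif1B are neighbours and overlap on the same strand. Their ratios were nearly the same, 1.67, 2.18 and 2.35 and 1.72, 2.19 and 2.42. Read pairs that fit both should have been discarded, and the effect of the overlap on their counts was not tested. Of the 13 genes of the group, which does not hold the Pif1 pair, 3 fell from early to late in NL and 3 in ZI, or 23.1% in each against 23.2% and 17.0% of all tested genes. In ZI, 2 of them (15.4%) rose from early to late, against 18.7% of all tested genes. From late to prepupae 1 (7.69%) rose there, against 3.64%. In NL 0 rose at either interval, against 18.4% and 7.68% of all tested genes.

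**Figure D4:**
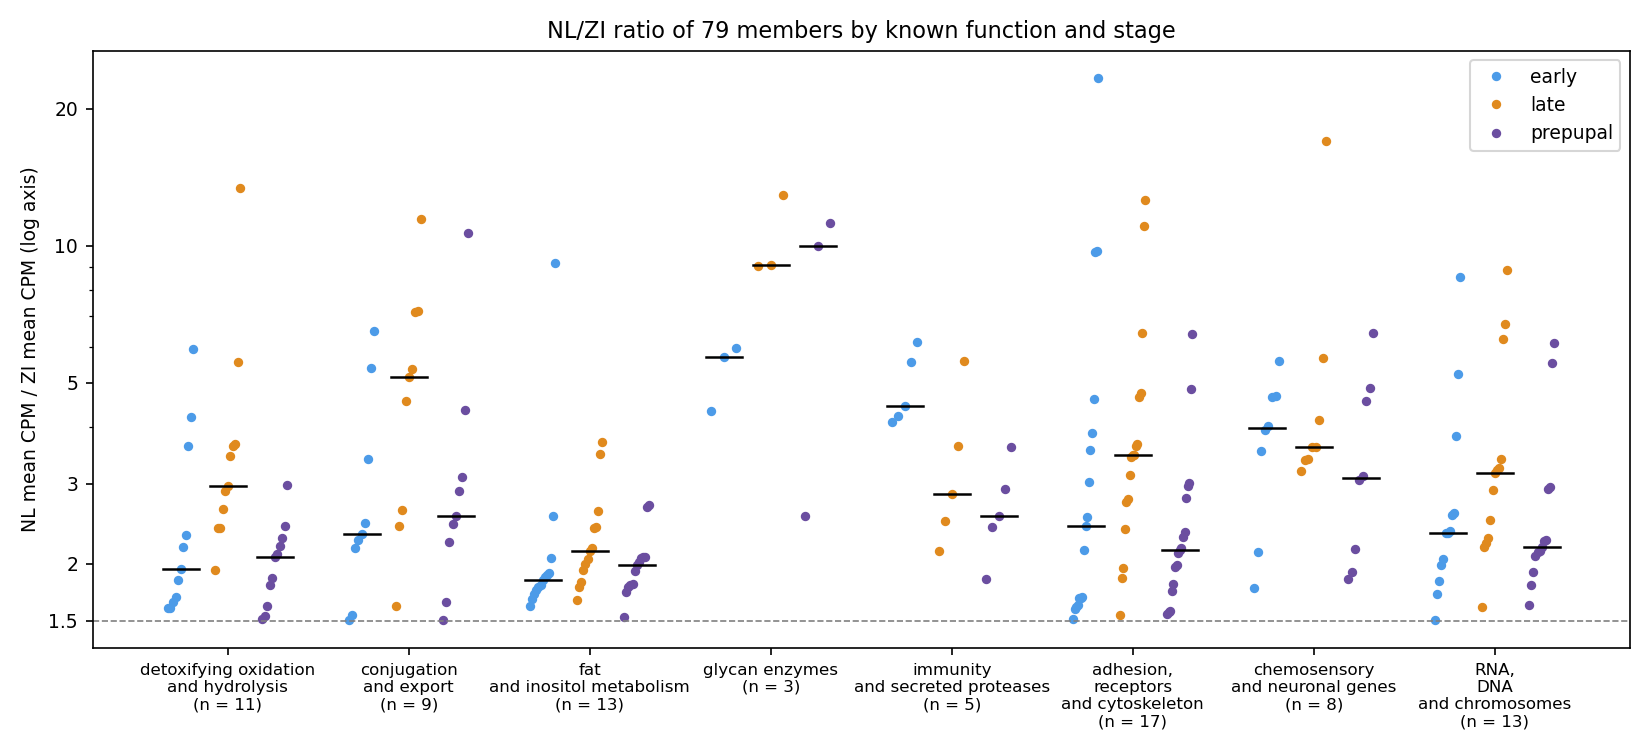
Ratio of the NL to the ZI mean, on a log axis, of 79 members in 8 groups of known function, with early in blue, late in orange and prepupal in purple, a black bar at the median and a dashed line at the limit of 1.5. Fat and inositol genes cluster near 2, while the glycan enzymes reach medians of 5.69, 9.08 and 10.0.

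The other 103 members, 59 of the 182 having no name beyond a CG number, had ratios of 1.51 to 15.8 early, 1.54 to 35.0 late and 1.51 to 19.6 in prepupae. Among them 39 fell and 17 rose from early to late in NL, and 30 fell and 23 rose in ZI. Falls made up 37.9% and 29.1% of these genes, against 23.2% and 17.0% of all tested genes, and rises 16.5% and 22.3%, against 18.4% and 18.7%. Among the named ones, fiz, an oxidoreductase of the GMC family, stood at 114, 133 and 71.7 CPM early, 586, 648 and 834 CPM late and 1324, 1109.6 and 1264 CPM in prepupae in NL. It stood at 19.3, 27.0 and 23.0 CPM early, 214, 152 and 267 CPM late and 373, 325 and 290.2 CPM in prepupae in ZI, and rose from early to late in NL (log2 change 2.10 ± 0.24 SE, adjusted p = 8.8e-07) and in ZI (3.05 ± 0.25 SE, adjusted p = 7.5e-09). The hemoglobin glob1 binds oxygen in tracheal cells and fat body. It held 190.2, 248 and 259 CPM early, 98.6, 84.9 and 42.3 CPM late and 15.8, 22.2 and 21.1 CPM in prepupae in NL. The ZI libraries held 131, 80.4 and 95.7 CPM early, 11.4, 12.6 and 10.4 CPM late and 6.15, 8.19 and 7.42 CPM in prepupae, and glob1 fell at both intervals in both populations. The last of these falls, in ZI, had an adjusted p of 0.044 and was lost in 8 of 22 alternatives, which included upper-quartile scaling and leaving out any 1 of the ZI prepupal libraries. Eglp2, an aquaglyceroporin, had 3.21, 4.48 and 3.12, and the D-amino acid oxidase Daao2 had 2.31, 2.97 and 2.69. The noncoding members numbered 12, or 6.59% against 6.73% of all tested genes. The longest of them, lncRNA:flam, is the precursor of piRNAs that silence transposons in ovarian follicle cells. It held 31.0 ± 1.44, 41.8 ± 2.42 and 41.4 ± 2.14 CPM in NL (SD, n = 3) and 11.2 ± 1.88, 12.8 ± 2.41 and 15.3 ± 2.59 CPM in ZI, and 0 of the 21 other tested piRNA pathway genes were called higher in NL at any stage. Called higher in ZI were 2 of the 21, mael early and late and Gasz late. Globins had 1 other tested gene, called higher in NL late. Of the 3 yolk protein genes, 0 of them members, Yp1 and Yp2 were called higher in NL late and in prepupae, and Yp3 was called higher in ZI at all 3 stages. Of the 10 other inositol and phospholipid genes, 1 was called higher in NL early and 2 higher in ZI late.

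Between stages, 83 of the 182 members (45.6%) fell from early to late in NL, against 23.2% of all tested genes, and 25 rose, against 18.4%. In ZI, 62 fell, against 17.0%, and 32 rose, against 18.7%. From late to prepupae 54 members fell in NL, against 7.45% of all tested genes, and 8 rose, against 7.68%. In ZI 37 fell, against 8.69%, and 9 rose, against 3.64%. Falls were thus a larger share of the members than of all tested genes at both intervals in both populations, which was not tested. The median log2 change from early to late was -0.34 for the members and 0.14 for all tested genes in NL, and -0.16 and -0.11 in ZI. From late to prepupae it was -0.28 and -0.09 in NL and -0.15 and 0.00 in ZI. From early to late 55 members (30.2%) fell in both populations, against 13.4% of all tested genes, and 15 (8.24%) rose in both, against 9.04%. Another 28 (15.4%) were called lower in NL and not called in ZI, against 9.61% of all tested genes. The reverse held for 7 (3.85%), against 3.29%. A rise in 1 population and a fall in the other was called for 0, against 0.482% of all tested genes. Both intervals and both populations showed a fall for 20 members, and no stage change was called for 41. The shares of all tested genes for these last counts were not worked out, so nothing is read from them. Upper-quartile scaling moved these medians to -0.15 for the members and 0.34 for all tested genes from early to late in NL, and to 0.05 and 0.20 from late to prepupae in ZI, where the sign of the members' median turned. With it the split was 73 falls (40.1%, against 19.0% of all tested genes) and 40 rises (22.0%, against 29.8%) from early to late in NL. From late to prepupae in ZI there were 27 falls (14.8%, against 5.99%) and 15 rises (8.24%, against 8.30%). Single libraries moved these counts, and those over all tested genes too. Falls from late to prepupae in ZI numbered 19 without ZI late replicate 2 and 23 without ZI prepupal replicate 2. Over all tested genes they numbered 554 and 618, against 1083 with all libraries. Rises there numbered 4 without ZI late replicate 2 and 5 without ZI prepupal replicate 3. For all tested genes these were 240 and 316, against 453. In NL, rises from early to late numbered 38 without NL late replicate 1, and 4332 over all tested genes, against 2290. Those from late to prepupae numbered 5 without NL late replicate 1 or NL prepupal replicate 1. All tested genes then gave 617 and 670 such rises, against 957.

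**Figure D5:**
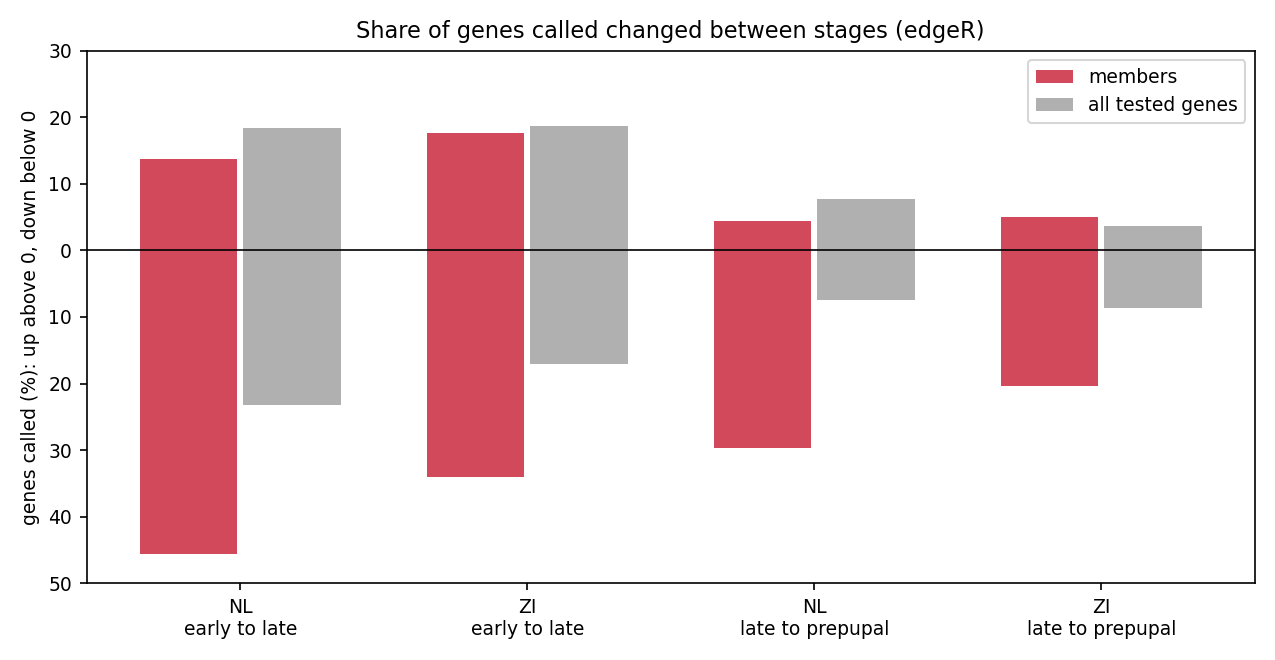
Percent of the 182 members, in red, and of the 12460 tested genes, in grey, that edgeR called higher, above the line, or lower, below the line, between stages in NL and ZI. The red bar below the line is longer than the grey one in all 4 comparisons, from 45.6% against 23.2% down to 20.3% against 8.69%.

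Members lay on every arm, 40 on X, 34 on 2L, 28 on 2R, 25 on 3L, 53 on 3R and 2 on chromosome 4, or 2.002% of the tested genes of X, 1.70% of 3R and 1.04% of 3L. Of 181 members with coordinates in the Ensembl annotation of the release 6 assembly, 54 (29.8%) stood next to another member in gene order, against 2.43% of the other tested genes. This formed 24 runs of 2 or 3 genes. Of the neighbouring pairs, 17 did not overlap and 11 of these were on the same strand. The other 13 neighbouring pairs overlapped, 10 on opposite strands, and the effect of the overlap on their counts was not tested. Runs with no shared bases included CG31157 and CG7966, 103 bases apart on opposite strands, where CG7966 had ratios of 2.65, 6.09 and 4.67, and CG2961 and Hk on X, 266 bases apart, where CG2961 had 2.85, 6.42 and 1.95. The serine proteases Jon99Cii and Jon99Ciii, 298 bases apart, had 4.09, 2.48 and 2.41 and 5.54, 5.58 and 1.85, at levels under 2 CPM in every NL mean.

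The 296 tested genes that flank members and are not members were called higher in NL in 33 cases early (11.1%), 72 late (24.3%) and 11 in prepupae (3.72%). The 11899 tested genes that are neither members nor next to one were called higher in NL in 3.03%, 12.3% and 1.52% of cases. Calls in the other direction made up 2.36%, 12.2% and 3.04% of the flanking genes, and 3.06%, 14.3% and 2.11% of the remaining genes. The median log2 difference of the flanking genes was 0.12 early, 0.19 late and 0.04 in prepupae. Read pairs that fit several genes were discarded according to the study's methods. How much of the difference between flanking and remaining genes comes from overlap between genes was not tested.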

How the data were processed

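RNA was extracted from dissected larval fat body and sequenced after ribosomal depletion. According to the study's methods, the authors mapped read pairs to the FlyBase release 6 transcriptome with NextGenMap, discarded pairs without a unique best gene and summed transcripts, so genes with near-identical copies lose reads. The deposited values are raw counts per gene in 18 libraries. CPM was each count over the library total, and TPM was scaled by the gene length in the table. Names and coordinates came from Ensembl release 115 (release 6 assembly). The members and lists were chosen with earlier results of these data known. The members were all genes that met the rule, and any of them could be named. By the rule, values in full go to the 10 highest ratios, the 5 highest TPM, members of the fixed lists, genes the study discusses, neighbouring members, low ZI counts and the largest stage changes, and many of these, list members above all, are given here by means or ratios only. The pattern for the P450 list also caught shf, which is no P450 and was left out. Other names beside the lists, and the groups by known function, were chosen after the values were seen.

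Stage and population contrasts were fitted with edgeR 4.0.16 (quasi-likelihood test, TMM scaling, 6 groups in 1 model, genes with a mean of at least 15 counts, Benjamini-Hochberg adjustment over all 12460 genes, threshold 0.05). The fit was tested on simulated data before use. Alternatives were DESeq2 1.42.0, upper-quartile scaling, no low-count filter, a replicate block and each library left out in turn, and for the rule other scalings, folds and minimums. Populations were not compared by interaction tests, because the members were chosen on their difference. Promoter and protein sequences were not analysed here.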

Additional observations from a re-analysis of the deposited data

Results flagged for a closer look

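A single member moved in opposite directions in the populations with all 3 libraries of each stage apart. CG15312 changed from late to prepupae by -0.43 on the log2 scale in NL, where all 3 prepupal libraries lay below all 3 late libraries, and by 0.72 in ZI, where all 3 lay above. The change in NL was not called (edgeR adjusted p = 0.072) and that in ZI was (0.007). The difference between the populations was not tested. Its NL libraries held 10.6, 13.0 and 15.4 CPM late and 8.87, 9.73 and 9.73 CPM in prepupae, and its ZI libraries 3.23, 1.89 and 3.16 and 5.26, 5.05 and 5.39 CPM. With 3 libraries in each group, single outlying libraries were not tested for.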

How the results depend on the processing

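Of 265 alternative values of the 12 counts, 254 lay within 1.5 times of the value reported. The rule found 166 genes with TMM-scaled library sizes, 148 of them among the 182, and 164 with DESeq2 size factors, 142 of them shared. A fold limit of 2 left 77 genes. Rises from early to late in NL numbered 40 with upper-quartile normalization, those from late to prepupae 13 in NL with DESeq2 and 15 in ZI with upper-quartile normalization. The cause was not tested.

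Leaving out 1 library at a time, the members numbered 174 to 200, and those called higher in NL 153 to 176 early, 143 to 171 late and 110 to 153 in prepupae. From early to late, rises numbered 21 to 38 and falls 65 to 83 in NL, and 25 to 42 and 54 to 62 in ZI. From late to prepupae, rises numbered 5 to 12 and falls 41 to 61 in NL, and 4 to 12 and 19 to 48 in ZI. Calls over all tested genes moved too. Their rises from early to late in NL numbered 4332 without NL late replicate 1, against 2290 with all libraries.

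Deviations of same-numbered libraries correlated from -0.39 to 0.42 over 45 pairs, of which 13 lay over 0.1. Their median was 0.02, against -0.02 for libraries of different numbers. These values cannot exclude that some libraries were paired. With a replicate block the counts were 83 falls and 26 rises from early to late in NL, 63 and 34 in ZI, 54 and 9 from late to prepupae in NL, 39 and 9 in ZI, and 167, 162 and 141 members were called higher in NL at the 3 stages.

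Depth limits the lowest members. Cpr67Fb had 2 counts in 1 ZI prepupal library, CG13314 had 1, and asRNA:CR45171 had 3 in 1 ZI early library.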
